A study of Mus musculus with 12 samples.

Results

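This report describes 10 genes for glutathione transferases and antioxidant enzymes in the mouse prostate: Mgst1, Mgst2, Mgst3, Gstt1, Gsto1, Gclc, Gclm, Gsr, Gpx3 and Cat. They were named as a list, and each gene is read from its brightest probe set over the 12 arrays, among the sets annotated to that gene alone. All 10 were measured, of 18194 genes on the arrays. The list was chosen by earlier results on these same arrays, the differences between knockout and wild type among them, so the p-values below, which are adjusted over all genes, describe the members and are not independent evidence about them. The samples were Med1 knockout ventral prostate, wild-type ventral prostate, Med1 knockout lateral prostate and wild-type lateral prostate, all from mice 16 weeks old, with 3 arrays in each group. The labels give neither the strain, nor the driver or the deleted part of the knockout, nor whether a group's arrays came from separate animals. The p-values therefore rest on how far these arrays spread, and that spread may be only technical. Med1 encodes a subunit of Mediator, which links nuclear receptors and other transcription factors to RNA polymerase II.

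Glutathione is a small thiol peptide that cells use to bind reactive compounds and to reduce peroxides. Glutamate-cysteine ligase, made of the subunits Gclc and Gclm, carries out the limiting step of its synthesis, glutathione transferases attach it to their substrates, and glutathione reductase returns the oxidized form to use. Glutathione peroxidases and catalase remove peroxides, and many of these genes are targets of the transcription factor NRF2 (Nfe2l2), which binds antioxidant response elements. In prostate epithelium the loss of a glutathione transferase of the pi class is a well-known change in human cancer.

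Values are log2 signals from Affymetrix arrays summarised by RMA, so a difference of 1 log2 unit is a change by a factor of 2. Array medians lay between 6.39 and 6.43 in ventral and between 6.05 and 6.06 in lateral samples, and sorted values had a median range of 0.0493 over the ventral, 0.0786 over the lateral and 0.388 over all arrays, so lobe and normalization run may coincide. Genotype was therefore compared within each lobe. A gene passed where limma's p, adjusted by Benjamini and Hochberg over all genes, was under 0.05. The targeted gene Med1 averaged 8.86 ± 0.16 in knockout and 9.43 ± 0.12 in wild-type ventral arrays (SD, n = 3 each), and passed as lower (limma adjusted p = 0.0119). In lateral arrays it averaged 8.39 ± 0.049 in those labelled knockout and 8.52 ± 0.26 in wild type and did not pass (limma adjusted p = 0.622), so the lateral genotype is taken here from its label. Med1 was read from its brightest probe set alone, and the labels do not tell whether that set covers the deleted part. The values therefore do not speak against the label. Of the luminal epithelium markers, Krt8, Krt18, Epcam, Foxa1 and Hoxb13 had group means of 10.30 to 12.93 log2 units. For 2 of the 7 measured seminal vesicle secretory genes, Svs2 and Pate4, WT-VP replicate 3 and MT-LP replicate 3 stood apart from their groups, and MT-LP replicate 3 also did for Svs5. Svs2 was at 8.71 on MT-LP replicate 3 and 11.89 and 11.99 on the others of its group, and it was at 7.55 on WT-VP replicate 3 and 2.80 and 2.99 on the others of its group. In bulk tissue, fewer cells of a type and less RNA per cell cannot be told apart.

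Mgst1, Gstt1 and Cat were higher in Med1 knockout than in wild-type prostate in each lobe, by 1.25-fold to 3.12-fold. Gclc passed in the ventral and not in the lateral lobe, and Gsto1 in the lateral and not in the ventral lobe. Some of these calls were fragile. Of 22 alternative settings, the lateral call of Gstt1 held in 7, the ventral call of Gclc in 13 and the lateral call of Gsto1 in 17. Mgst2, Mgst3, Gclm, Gsr and Gpx3 passed in neither. Thus 4 of the 10 genes rose in the ventral lobe, where 9.08% of all genes passed and 5.88% passed as higher, and 4 of 10 rose in the lateral lobe, where 5.03% passed and 1.62% passed as higher. No member passed as lower in either lobe by limma, with 0 in ventral and 2 in lateral prostate lower at an unadjusted p under 0.05, while 3.20% and 3.42% of all genes passed as lower there. The median difference over the 10 genes was 0.14 in ventral and 0.19 in lateral prostate, against -0.020 and -0.002 over all genes. Since the members were chosen with results known, these shares describe the list only.

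**Figure D1:**
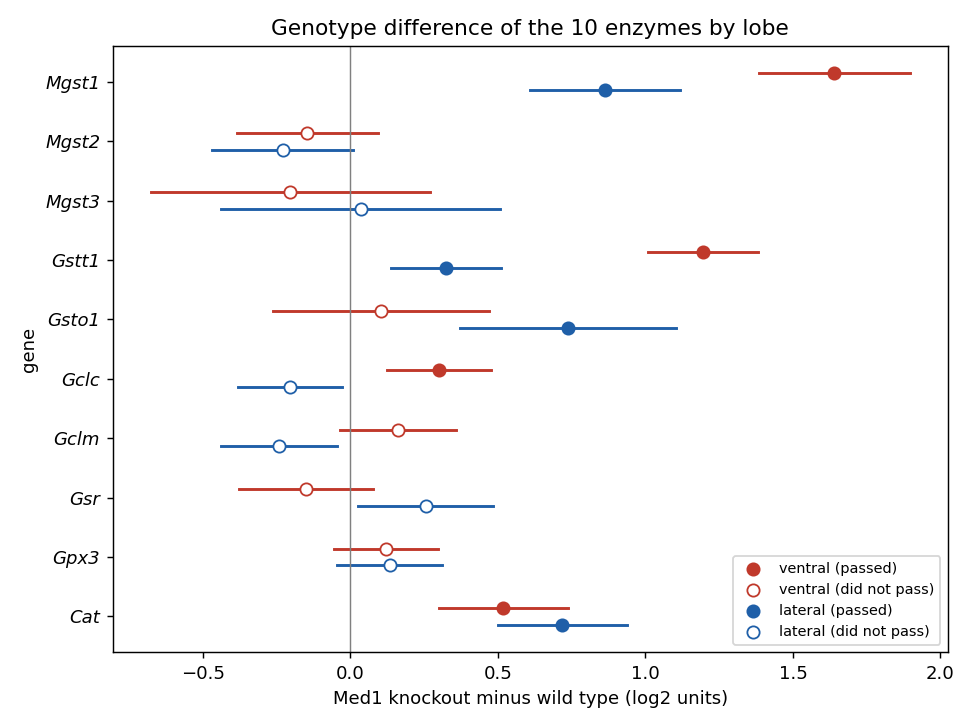
Points show the difference between Med1 knockout and wild type in log2 units for each of the 10 genes, in the ventral (red) and lateral (blue) lobe, and bars are 95% confidence intervals from limma over 12 arrays (not adjusted for the number of genes). Filled points passed at an adjusted p under 0.05: Mgst1, Gstt1 and Cat in both lobes, Gclc in the ventral and Gsto1 in the lateral lobe.

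The first group holds the 3 microsomal glutathione transferases, small proteins of the endoplasmic reticulum and outer mitochondrial membranes. Mgst1, which conjugates glutathione to lipophilic compounds and reduces lipid peroxides, read 9.72, 9.89 and 9.98 log2 units on the knockout ventral arrays, against 8.24, 8.29 and 8.14 on the wild-type ventral arrays. The arrays did not overlap, as in 29.5% of all genes in this comparison. The difference was 1.64 ± 0.12 (SE; limma adjusted p = 2.97e-06), a 3.12-fold rise.

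Lateral Mgst1 read 9.16, 9.16 and 9.12 on the arrays labelled knockout, against 8.45, 7.97 and 8.42 in wild type. Again each knockout array lay above each wild-type array, which was so in either direction for 26.9% of all genes. The rise was 0.86 ± 0.12 (SE; limma adjusted p = 5.75e-04), or 1.82-fold. With the mean of its probe sets in place of the brightest, Mgst1 differed by 0.847 in ventral (limma adjusted p = 0.00107) and 0.562 in lateral prostate (limma adjusted p = 0.0205), still past the threshold.

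Mgst2, which also makes leukotriene C4, read 5.75, 5.96 and 5.83 on knockout ventral arrays, against 5.79, 6.14 and 6.04 in wild type. The groups overlapped, and the difference of -0.15 had a 95% interval of -0.39 to 0.093 (limma adjusted p = 0.452). In the lateral lobe it read 6.39, 6.42 and 6.48 on the arrays labelled knockout, against 6.47, 6.83 and 6.68 in wild type. One pair of arrays overlapped there, and the interval ran from -0.47 to 0.009 (limma adjusted p = 0.274).

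Mgst3, a transferase with peroxidase activity, read 9.74, 9.92 and 8.75 on knockout ventral arrays, against 9.66, 9.80 and 9.56 in wild type. The third knockout array lay below all others and the first and second above the wild-type mean of 9.67. The difference was -0.20 with an interval of -0.68 to 0.27 (limma adjusted p = 0.613), and without that array it was 0.155. The lateral arrays read 9.13, 8.86 and 9.09 for knockout, against 8.84, 9.02 and 9.12 for wild type, with a difference of 0.035 (limma adjusted p = 0.951). Of the 3 microsomal genes, Mgst1 thus was the only one that passed, in either lobe.

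**Figure D2:**
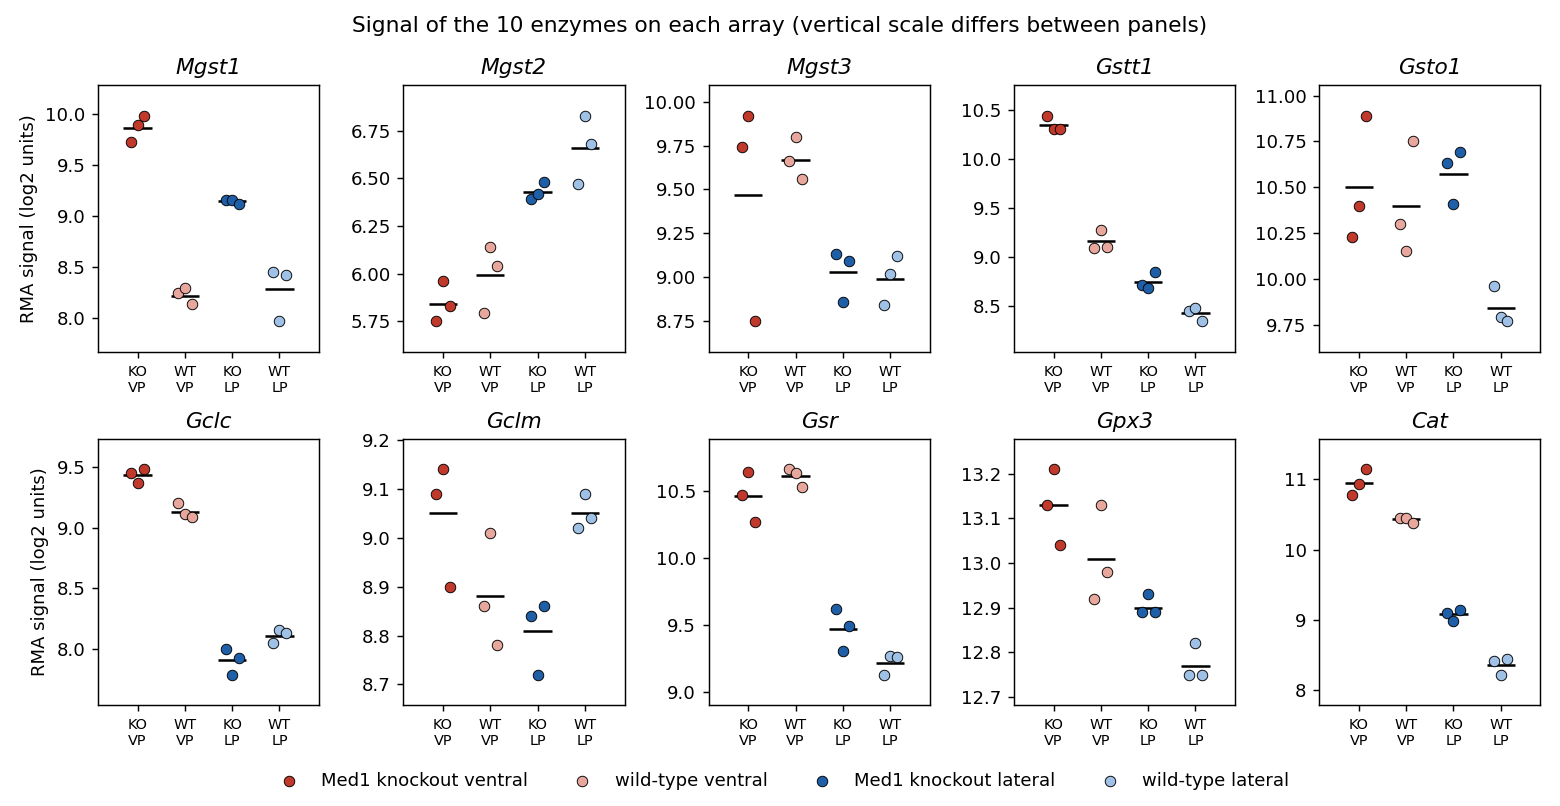
Each panel shows 1 gene, with the RMA signal in log2 units of every array as a point and the group mean as a line, for Med1 knockout and wild type (KO, WT) in ventral (VP) and lateral (LP) prostate, 3 arrays each. Mgst1, Gstt1 and Cat lie higher in knockout in both lobes with no overlap, Gclc separates upwards in ventral and downwards in lateral arrays, and 1 knockout ventral array of Mgst3 stands at 8.75.

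Among the soluble transferases, Gstt1, a theta-class enzyme that acts on small halogenated compounds, read 10.44, 10.31 and 10.30 on knockout ventral arrays, against 9.09, 9.28 and 9.10 in wild type. The groups lay more than 1 log2 unit apart at their nearest arrays. The rise was 1.20 ± 0.087 (SE; limma adjusted p = 2.97e-06), or 2.29-fold.

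Lateral Gstt1 read 8.72, 8.69 and 8.85 on the arrays labelled knockout, against 8.45, 8.48 and 8.35 in wild type. The groups did not overlap and the rise of 0.32 ± 0.087 passed narrowly (SE; limma adjusted p = 0.0474), or 1.25-fold. This call was lost when any 1 of 10 of the 12 arrays was left out, with differences of 0.277 to 0.355 and adjusted p up to 0.184. It held without WT-VP replicate 2 and without MT-VP replicate 3.

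Gsto1, an omega-class transferase that reduces dehydroascorbate, read 10.23, 10.40 and 10.89 on knockout ventral arrays, against 10.30, 10.15 and 10.75 in wild type. In each ventral group the third array was the highest, the groups overlapped, and the difference of 0.10 did not pass (95% interval -0.26 to 0.47; limma adjusted p = 0.755). Its lateral readings were 10.63, 10.41 and 10.69 on the arrays labelled knockout, against 9.96, 9.79 and 9.77 in wild type. The lateral groups did not overlap, and Gsto1 rose by 0.74 ± 0.17 (SE; limma adjusted p = 0.0226), or 1.67-fold. The lateral call was lost without WT-LP replicate 2, WT-LP replicate 3, MT-LP replicate 1 or MT-LP replicate 3, with adjusted p of 0.0779, 0.0872, 0.0585 and 0.0861.

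Glutathione synthesis was represented by the catalytic subunit Gclc and the modifier subunit Gclm of glutamate-cysteine ligase. Gclc read 9.45, 9.37 and 9.48 on knockout ventral arrays, against 9.20, 9.11 and 9.09 in wild type, without overlap. It rose by 0.30 ± 0.082 (SE; limma adjusted p = 0.0353), or 1.23-fold. On the arrays labelled knockout in the lateral lobe it read 8.0, 7.79 and 7.93, against 8.05, 8.16 and 8.13 in wild type. There each knockout array lay below each wild-type array, at a difference of -0.21 ± 0.082 that did not pass (SE; limma adjusted p = 0.178). The ventral call was lost without WT-VP replicate 1, 2 or 3, MT-VP replicate 1 or 3, or WT-LP replicate 3, with adjusted p of 0.0602, 0.0887, 0.117, 0.0849, 0.0862 and 0.0505.

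Gclm read 9.09, 9.14 and 8.90 on knockout ventral arrays, against 8.86, 9.01 and 8.78 in wild type, and the groups overlapped. Its difference was 0.16 (95% interval -0.035 to 0.36; limma adjusted p = 0.296). In the lateral lobe it read 8.84, 8.72 and 8.86 on the arrays labelled knockout, against 9.02, 9.09 and 9.04 in wild type. These groups did not overlap, and the difference of -0.24 ± 0.091 did not pass (SE; limma adjusted p = 0.154). Both subunits of the ligase thus had the same sign as each other in each lobe, positive in ventral and negative in lateral prostate.

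Gsr, the NADPH-dependent reductase of oxidized glutathione, had the opposite pair of signs. It read 10.47, 10.64 and 10.27 on knockout ventral arrays, against 10.66, 10.63 and 10.53 in wild type. The difference was -0.15 ± 0.11 with overlapping groups (SE; limma adjusted p = 0.415). Lateral Gsr read 9.62, 9.31 and 9.49 on the arrays labelled knockout, against 9.13, 9.27 and 9.26 in wild type. The lateral groups separated narrowly, and the difference of 0.25 ± 0.11 did not pass (SE; limma adjusted p = 0.201).

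Of the peroxide-removing enzymes, Cat, the catalase of peroxisomes, read 10.77, 10.93 and 11.14 on knockout ventral arrays, against 10.45, 10.45 and 10.38 in wild type. The groups did not overlap, and Cat rose by 0.52 ± 0.10 (SE; limma adjusted p = 0.0063), or 1.43-fold. Lateral Cat read 9.10, 8.99 and 9.14 on the arrays labelled knockout, against 8.41, 8.22 and 8.44 in wild type. This rise of 0.72 ± 0.10 also came without overlap (SE; limma adjusted p = 7.35e-04), or 1.64-fold.

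Gpx3, the secreted selenium-dependent glutathione peroxidase, read 13.13, 13.21 and 13.04 on knockout ventral arrays, against 12.92, 13.13 and 12.98 in wild type. The groups overlapped, with a difference of 0.12 (95% interval -0.057 to 0.30; limma adjusted p = 0.399). Lateral Gpx3 read 12.89, 12.93 and 12.89 on the arrays labelled knockout, against 12.75, 12.82 and 12.75 in wild type. There the groups did not overlap, but the difference of 0.13 did not pass (95% interval -0.045 to 0.31; limma adjusted p = 0.410). Over the 10 genes, the arrays of the genotypes did not overlap for 4 genes in the ventral lobe, all higher, and for 8 in the lateral lobe, 6 higher and 2 lower. Among all genes 14.9% separated as higher and 14.6% as lower in the ventral lobe, and 11.2% and 15.7% in the lateral lobe.

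The bases before the annotated start are shown for the 3 genes that passed in both lobes and for Gclm, because the antioxidant response element is a known NRF2 site in genes of this kind. Promoter sequence from RefSeq (GRCm38.p6) was at hand for 8 of the 10 members, with 2 starts for Mgst1. The core TGACNNNGC was searched on both strands in windows of 250 bases before and 50 after each start, and overlap with other motifs was not considered. It occurred in 2 of 9 member windows, 1 of Mgst1 and that of Gclm, against 12.4% of all 32851 windows. Each sequence gives the 250 bases before the start, 5′ to 3′ on the gene's strand, and capitals mark the match, which lies on the opposite strand in both cases (read there as TGACCGTGC in Mgst1 and TGACGGTGC in Gclm). The positions are chr6:138140277-138140526 (+) for Mgst1, chr10:75797732-75797981 (-) for Gstt1, chr2:103485154-103485403 (-) for Cat and chr3:122245307-122245556 (+) for Gclm.
Mgst1: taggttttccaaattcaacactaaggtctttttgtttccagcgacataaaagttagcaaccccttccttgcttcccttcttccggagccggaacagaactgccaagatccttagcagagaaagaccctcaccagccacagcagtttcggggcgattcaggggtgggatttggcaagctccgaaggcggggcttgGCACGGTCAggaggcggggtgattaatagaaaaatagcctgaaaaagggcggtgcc
Gstt1: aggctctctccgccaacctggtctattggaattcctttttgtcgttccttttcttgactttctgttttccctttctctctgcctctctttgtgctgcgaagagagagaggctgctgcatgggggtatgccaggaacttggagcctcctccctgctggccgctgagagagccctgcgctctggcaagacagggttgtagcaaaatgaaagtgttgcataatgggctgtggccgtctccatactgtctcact
Cat: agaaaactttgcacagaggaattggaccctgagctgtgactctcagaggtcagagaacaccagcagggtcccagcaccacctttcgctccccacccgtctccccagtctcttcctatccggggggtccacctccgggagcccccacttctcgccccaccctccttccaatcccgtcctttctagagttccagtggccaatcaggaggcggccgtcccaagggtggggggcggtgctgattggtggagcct
Gclm: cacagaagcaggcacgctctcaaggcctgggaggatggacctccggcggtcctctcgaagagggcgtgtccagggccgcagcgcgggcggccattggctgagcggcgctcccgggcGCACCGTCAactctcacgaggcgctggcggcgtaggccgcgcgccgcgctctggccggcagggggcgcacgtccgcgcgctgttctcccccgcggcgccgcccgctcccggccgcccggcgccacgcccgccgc
The match begins 56 bases before the start in Mgst1 and 134 in Gclm. Mgst1 passed in both lobes and Gclm in neither, and Gstt1 and Cat, which passed in both, had no match to these letters in the window. A match is a description of the letters and no evidence of binding.

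A dimmer probe set of the same gene gave a further reading, from the same arrays. Of the 10 genes, 7 had a second probe set, and in all 7 its difference had the same sign as that of the brightest set in the ventral lobe, and likewise in the lateral lobe. The share of such matches among all genes was not computed. Some of these differences were near 0, as for the second Gclc set in the lateral lobe (-0.024). The second Mgst1 set was at 0.054 in the ventral lobe (limma adjusted p = 0.907), beside 1.64 for the brightest. The matching signs therefore describe these sets only. The second Cat probe set rose in both lobes, by 0.59 in the ventral (limma adjusted p = 0.00261) and 0.75 in the lateral lobe (limma adjusted p = 4.50e-04). That of Gsto1 rose in the lateral lobe by 0.59 (limma adjusted p = 0.0455). The second set of Gclm passed as higher in the ventral lobe, at 0.50 (limma adjusted p = 0.0249), although the brightest did not, and that of Gclc was at 0.32 there without passing (limma adjusted p = 0.0738). These p-values were adjusted over all single-gene probe sets, and there the brightest Gstt1 set no longer passed in the lateral lobe (limma adjusted p = 0.0643).

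The second Mgst1 set averaged 3.23 in knockout and 3.18 in wild-type ventral arrays, and 3.62 in those labelled knockout and 3.36 in wild type in the lateral lobe. The dimmest 25% of all probe sets lay below 4.73 in ventral and below 4.52 in lateral arrays, and this set was among them. The second Mgst3 set was among them in every group except wild-type ventral. It averaged 4.63 in knockout and 4.82 in wild-type ventral arrays, and 4.38 and 4.02 in lateral arrays. For Mgst2, Gstt1 and Gpx3 there was 1 probe set each.

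The test of the difference between the lobes asked whether the genotype difference was the same in ventral and lateral prostate. Over all genes 6.51% passed with a more positive difference in the ventral lobe and 2.80% with a more negative one. Of the 10 members, 3 passed, each more positive in the ventral lobe. Gstt1 differed by 0.87 ± 0.12 (SE; limma adjusted p = 6.16e-04), Mgst1 by 0.78 ± 0.17 (limma adjusted p = 0.0101) and Gclc by 0.50 ± 0.12 (limma adjusted p = 0.0144). Without WT-VP replicate 3 and MT-LP replicate 3 together, Mgst1 (0.723, limma adjusted p = 0.0595) and Gclc (0.495, limma adjusted p = 0.0684) no longer passed, while Gstt1 did (0.89, limma adjusted p = 0.00397). With the mean of its 2 probe sets in place of the brightest, the Mgst1 difference was 0.286 and did not pass (limma adjusted p = 0.344).

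Cat did not pass this test, at -0.20 with an interval of -0.51 to 0.11 (limma adjusted p = 0.407). Gsto1 was at -0.63 (95% interval -1.15 to -0.12; limma adjusted p = 0.120), so its lateral rise was not shown to differ from the ventral value. Gclm at 0.40 (limma adjusted p = 0.0665) and Gsr at -0.40 (limma adjusted p = 0.111) did not pass either. Without MT-VP replicate 3, Gsto1 and Gclm did pass, at -0.826 and 0.475 (limma adjusted p = 0.031 for each), and Gclm also passed without WT-VP replicate 2, at 0.468 (limma adjusted p = 0.046).

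Between the lobes of wild-type mice, Cat was the member with the largest difference, at 8.36 ± 0.12 in lateral and 10.43 ± 0.042 in ventral arrays (SD, n = 3 each). As deposited, lateral minus ventral was -2.07 for Cat, -1.39 for Gsr, -1.02 for Gclc, -0.73 for Gstt1 and 0.67 for Mgst2, the highest limma adjusted p of these 5 genes being 1.07e-04. In all, 8 of 10 members passed, 1 higher and 7 lower on the deposited scale, where 68.1% of all genes passed, 12.3% as higher and 55.8% as lower in the lateral lobe. The arrays of the lobes did not overlap for 9 members, 2 higher and 7 lower, as for 73.3% of all genes, of which most were lower in lateral arrays (59.3% of all). With arrays centred on their medians, and likewise with quantile normalization over all arrays, 7 members passed, 3 higher and 4 lower. The median of all genes was -0.34 as deposited, and whether this shift came from the tissue or the scaling was not tested. With centred arrays, Cat was at -1.71, Gsr at -1.03, Gclc at -0.66, Gstt1 at -0.37 and Mgst2 at 1.03, each past the threshold. With quantile normalization these genes kept their signs and passed, at -1.53 for Cat, -0.837 for Gsr, -0.515 for Gclc, -0.207 for Gstt1 and 1.04 for Mgst2. Mgst1 was at 0.059 as deposited and did not pass (limma adjusted p = 0.673), but passed as higher in lateral arrays when centred, at 0.419 (limma adjusted p = 0.0089), and after quantile normalization, at 0.55 (limma adjusted p = 0.00238). Gpx3 changed its sign, at -0.24 as deposited, 0.122 centred and 0.0393 after quantile normalization.

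In knockout prostate the same lobe comparison had 8 of 10 members past the threshold on the deposited scale, 1 higher and 7 lower, against 67.3% of all genes, 14.2% higher and 53.1% lower. Arrays did not overlap for the same numbers of members, and for 69.0% of all genes, 15.3% higher and 53.7% lower. With centred arrays 2 members passed as higher and 5 as lower, and with quantile normalization 3 and 4. Gstt1 averaged 8.75 ± 0.084 in lateral and 10.35 ± 0.076 in ventral knockout arrays, and Mgst1 averaged 9.15 ± 0.022 and 9.86 ± 0.13 (SD, n = 3 each). The Mgst1 difference of -0.72 was -0.09 after quantile normalization and then did not pass (limma adjusted p = 0.556). Gclm had -0.24 as deposited and 0.373 after quantile normalization, past the threshold with opposite signs. These lobe differences share their arrays with the genotype comparisons.

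**Figure D3:**
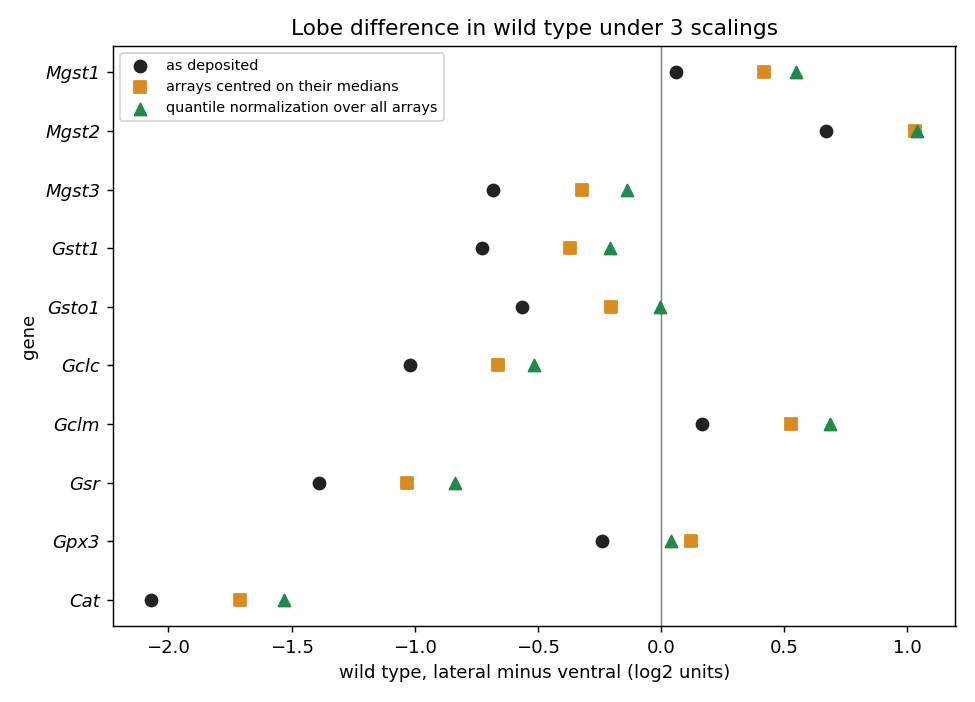
Points give the lateral minus ventral difference of each gene in wild type, in log2 units, for the deposited values (circles), arrays centred on their medians (squares) and quantile normalization over all arrays (triangles), without error bars. Cat, Gsr, Gclc and Gstt1 lie below 0 and Mgst2 above 0 under each scaling, while Gpx3 crosses 0.

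The other genes of glutathione and redox metabolism were taken from 8 lists that overlap in part and together held 118 genes with the members, and of these 98 were measured besides the members. In the ventral lobe 13 of the 98 rose and 2 fell, against 5.88% and 3.20% of all genes, with a median difference of 0.029 against -0.020 over all genes. In the lateral lobe 2 rose and 8 fell, against 1.62% and 3.42%, with a median of -0.037 against -0.002. Gstk1, the kappa-class transferase of mitochondria and peroxisomes, rose in both lobes, by 0.56 ± 0.11 in the ventral (SE; limma adjusted p = 0.00682) and 1.01 ± 0.11 in the lateral lobe (limma adjusted p = 9.52e-05). Its arrays did not overlap in either lobe.

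Of the 21 measured soluble and mitochondrial transferases, members included, 6 rose and 1 fell in the ventral lobe, and 3 rose and 2 fell in the lateral lobe. Gsta4, which detoxifies the lipid peroxidation product hydroxynonenal, rose in the ventral lobe by 0.59 ± 0.096 (limma adjusted p = 0.00184) and was at 0.03 in the lateral lobe. Gstcd, which has a transferase-like domain, rose in the ventral lobe by 0.89 ± 0.11 (limma adjusted p = 2.62e-04) and was at 0.16 in the lateral lobe. Gsta3, of the alpha class, fell in the ventral lobe by 0.82 ± 0.14 (limma adjusted p = 0.00274). The mu-class genes Gstm5 and Gstm7 rose in the ventral lobe, by 0.40 (limma adjusted p = 0.0384) and 0.47 (limma adjusted p = 0.0456). They fell in the lateral lobe, by 0.64 (limma adjusted p = 0.00351) and 1.02 (limma adjusted p = 4.03e-04). Genes of this class resemble each other in sequence, so their probes may read more than 1 of them. Of the 6 genes of the membrane-bound family, Alox5ap, which presents arachidonate for leukotriene synthesis, rose in the ventral lobe by 0.69 ± 0.20 (limma adjusted p = 0.0442) and in the lateral lobe fell by 2.16 ± 0.20 (limma adjusted p = 1.61e-05).

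The list of glutathione synthesis, recycling and breakdown had 2 of 21 genes higher in the ventral and 1 higher in the lateral lobe by limma. None was lower, with 1 and 3 lower at an unadjusted p under 0.05. Besides Gclc, the dipeptidase Dpep1 rose in the ventral lobe by 0.75 ± 0.12 (limma adjusted p = 0.00208). Anpep, an aminopeptidase that can act on products of glutathione breakdown, rose in the lateral lobe by 1.51 ± 0.11 (limma adjusted p = 1.09e-06). Of 8 glutathione peroxidases, Gpx8, a resident of the endoplasmic reticulum, was the only one that passed, lower in the lateral lobe by 0.96 ± 0.11 (limma adjusted p = 1.27e-04). In the list of superoxide dismutases and catalase, Sod2, the mitochondrial enzyme, rose in the ventral lobe by 0.50 ± 0.10 (limma adjusted p = 0.00749). Sod3, the extracellular enzyme, rose there by 0.65 ± 0.15 (limma adjusted p = 0.0165) and fell in the lateral lobe by 0.69 ± 0.15 (limma adjusted p = 0.0163).

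Of 14 peroxiredoxin and thioredoxin genes, 1 passed in ventral and 0 in lateral prostate by limma, where 1 was lower at an unadjusted p under 0.05. The one that passed was Txnip, which binds and inhibits thioredoxin, and it fell by 0.56 ± 0.096 (limma adjusted p = 0.00259). In the list of NRF2 regulators and targets, 3 of 24 genes rose in the ventral lobe and 1 fell in the lateral lobe. Those that rose were Gclc, the small Maf factor Maff by 0.74 ± 0.093 (limma adjusted p = 2.48e-04) and the UDP-glucose dehydrogenase Ugdh by 0.49 ± 0.089 (limma adjusted p = 0.00347). The epoxide hydrolase Ephx1 fell in the lateral lobe by 0.48 ± 0.078 (limma adjusted p = 0.00218). The regulator genes Nfe2l2 and Keap1 and the target Nqo1 did not pass in either lobe, at -0.002, -0.06 and -0.21 in the ventral and -0.09, -0.04 and -0.14 in the lateral lobe. At an unadjusted p under 0.05, 7 of the 24 genes were higher and 3 lower in the ventral lobe by limma. In the lateral lobe 3 were higher and 5 lower. Among 15 genes of NADPH supply, the malic enzyme Me3 (0.80, limma adjusted p = 4.10e-04) and the hexose-6-phosphate dehydrogenase H6pd (0.36, limma adjusted p = 0.0207) rose in the ventral lobe. In the lateral lobe Me3 fell by 0.40 (limma adjusted p = 0.0479) and the mitochondrial NAD kinase Nadk2 by 0.53 (limma adjusted p = 0.0339).

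**Figure D4:**
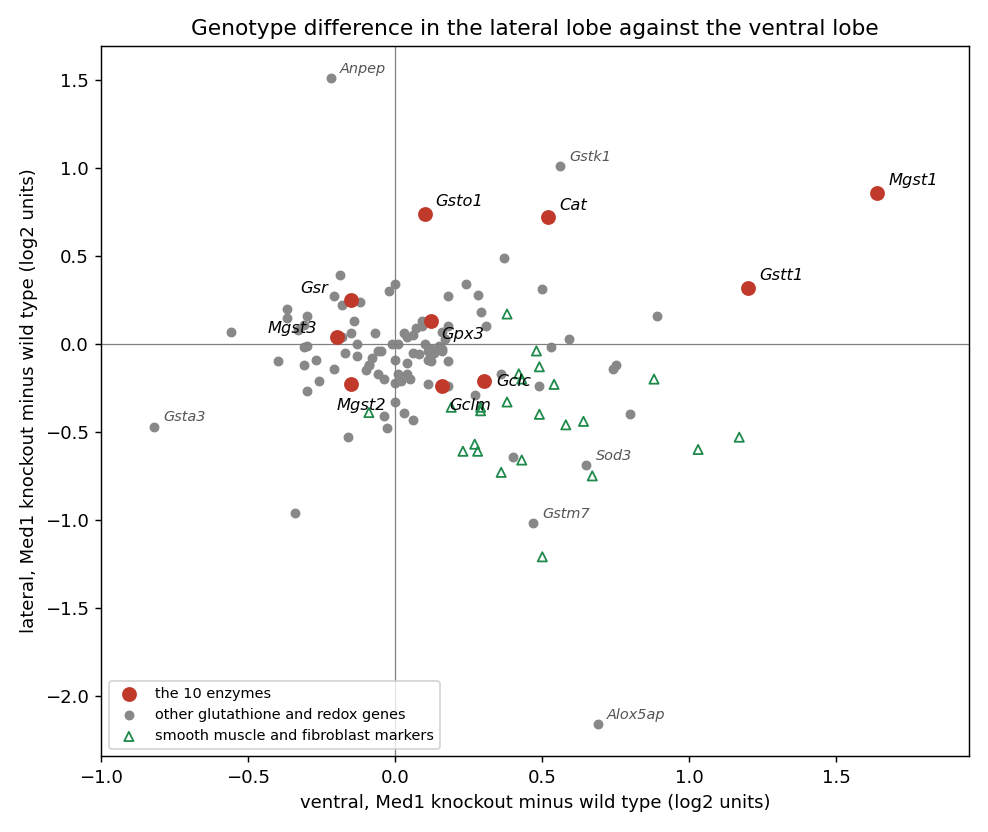
Each point is 1 gene, with its knockout minus wild-type difference in the ventral lobe on the horizontal and in the lateral lobe on the vertical axis, both in log2 units and without error bars, for the 10 enzymes (red), the other glutathione and redox genes (grey) and the smooth muscle and fibroblast markers (green triangles). Mgst1, Gstt1, Cat and Gstk1 lie at upper right, while Sod3, Gstm7 and Alox5ap lie at lower right, where most of the stromal markers are.

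Markers of other cell types moved with genotype as well. Of 12 smooth muscle markers 8 rose in the ventral lobe and 5 fell in the lateral lobe, and of 12 fibroblast and matrix markers 7 rose in the ventral and 6 fell in the lateral lobe. The mean level of the smooth muscle list was 10.34 to 10.54 on knockout and 9.76 to 10.04 on wild-type ventral arrays. It was 10.59 to 10.90 on the lateral arrays labelled knockout and 11.12 to 11.27 in wild type. The fibroblast list ran from 9.13 to 9.25 in knockout and from 8.60 to 8.86 in wild-type ventral arrays, and from 8.37 to 8.55 in knockout and 8.80 to 8.88 in wild-type lateral arrays. Gclc, Gclm, Gstm5, Gstm7, Sod3, Me3, Alox5ap, Maff, Dpep1, Ugdh and H6pd had this pair of signs, positive in ventral and negative in lateral prostate. Of these, Gclc, Gclm, Maff, Dpep1, Ugdh and H6pd did not pass in the lateral lobe, and Gclm did not in the ventral lobe either. Other genes of the lists, such as Idh1, Bach1 and Prdx3, had these signs too, without passing in either lobe. The part of stroma in the values of all these genes was not tested. Mgst1, Gstt1, Cat and Gstk1 were higher in both lobes, and the part of stroma in their values was not tested either.

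The 8 luminal epithelium markers had a mean level of 11.48 to 11.59 in knockout and 11.56 to 11.61 in wild-type ventral arrays, and 10.75 to 10.86 in knockout and 10.78 to 10.85 in wild-type lateral arrays, and 1 of them, Spdef, fell in the ventral lobe. The 7 measured seminal vesicle genes ran from 7.30 to 8.63 on the lateral arrays labelled knockout and from 10.61 to 10.72 in wild type, with 5 of 7 lower, and from 4.19 to 4.49 in knockout and 3.78 to 5.27 in wild-type ventral arrays. Their part in the lateral values was not tested. Without WT-VP replicate 3 and MT-LP replicate 3, the arrays that stand apart in Svs2 and Pate4, Mgst1 differed by 1.6 in ventral and 0.875 in lateral prostate and Cat by 0.494 and 0.686, and each still passed. Gstt1 stayed past the threshold in the ventral lobe, and Gclc (ventral), Gstt1 (lateral) and Gsto1 (lateral) did not, so that 3 and 2 members passed. Of 7 basal epithelium markers, Krt5 (-0.47) and Ngfr (-0.60) fell in the lateral lobe, and none passed in the ventral lobe by limma, with 4 higher and 1 lower at an unadjusted p under 0.05. Of 7 adipocyte markers, Adipoq (-1.26) and Lep (-0.44) fell in the ventral lobe and Plin4 (-0.58) and Lpl (-0.66) in the lateral lobe, Adipoq being among the dimmest 25% in each group by its mean. Of 15 leukocyte markers, Csf1r (0.61) rose in the ventral lobe and Tyrobp (-0.60) and H2-Ab1 (-0.42) fell in the lateral lobe. Of 8 endothelium markers none passed in either lobe by limma, with 1 higher in the ventral and 1 lower in the lateral lobe at an unadjusted p under 0.05. The part of these cell types in the enzymes' values was not tested. Red blood cells hold much catalase, and of their 4 measured markers 0 passed in either lobe by limma. At an unadjusted p under 0.05, 1 was higher (Alas2, 0.32) and 1 lower (Hba-a1, -0.25) in ventral and 0 in lateral prostate. Hba-a1 was among the dimmest 25% in each group by its mean. The part of red blood cells in the Cat values was not tested.

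Genes with the most similar pattern were found as the highest Pearson correlations over the 12 arrays after each lobe's mean was subtracted. Because the arrays share their groups, such values are high for any pair of genes with the same group differences, and they are given as a description. For Mgst1 these were Npnt (r = 0.978) and Ifnar2 (0.967), for Gstt1 Tlr3 (0.977) and Amotl2 (0.973), and for Cat Bex1 (0.966) and Cyp4v3 (0.962). Npnt was at 1.47 in ventral and 0.74 in lateral prostate, beside 1.64 and 0.86 for Mgst1, while Bex1 was at 1.30 and 1.24, beside 0.52 and 0.72 for Cat. For Gclc they were Prrx1 (0.985) and Rnase4 (0.974), and for Gsto1 Rad9b (0.941) and Cdkn1a (0.940). Among the members themselves, Mgst1 was most like Gstt1 (0.94) and Cat (0.88).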

How the data were processed

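RNA came from a silica column kit and labelling used a biotin module, per the labels' protocols. The deposited table holds log2 signals per probe set, and the submitters' processing notes name Affymetrix Expression Console and RMA for it, without versions. Of 45101 probe sets, 34958 had 1 gene symbol in the platform annotation, 932 had several and 9211 had none listed. Symbols were updated through Entrez identifiers for 34754 of them with a RefSeq table of GRCm38.p6. The brightest probe set stood for each of 18194 genes.

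Group means over all 12 arrays were fitted with limma 3.58.1 in R 4.3.3 (lmFit and eBayes, 8 residual and 5.68 prior degrees of freedom), with Benjamini-Hochberg adjustment over all genes. The fit was tested on simulated data. The members and lists were chosen with earlier results of these data known. Named besides the members are Med1, up to 4 genes of smallest p per pathway list and genotype comparison among those past the threshold, and the 2 genes most like a member. Nfe2l2, Keap1, Nqo1 and single marker genes were chosen after their values were seen. Alternatives covered the arrays used, a replicate block, scaling, a filter on dim genes, probe set handling, the variance model and a fold threshold. Depth does not apply to arrays, and their number limits the precision.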

Additional observations from a re-analysis of the deposited data

Results flagged for a closer look

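The genotype difference itself differed between the lobes, by limma's test of ventral minus lateral, for 3 of the 10 enzymes, Gstt1 (0.87), Mgst1 (0.78) and Gclc (0.50), all in log2 units. Of all genes 9.31% passed this test, 6.51% with a more positive and 2.80% with a more negative difference in the ventral lobe. Among the other pathway genes named, Alox5ap (2.85), Gstm7 (1.49), Sod3 (1.34), Me3 (1.20) and Gstm5 (1.04) had more positive values in the ventral lobe. The same held for Maff (0.88), Dpep1 (0.87), Gstcd (0.73), Ugdh (0.73), Gpx8 (0.62), Gsta4 (0.56), H6pd (0.53) and Ephx1 (0.45). Anpep (-1.73) and Txnip (-0.63) had more negative values there. These pathway genes were named because they passed in a genotype comparison within a lobe, and the same values enter this test. Among all 98 measured pathway genes besides the members, 14 passed with a more positive and 3 with a more negative difference. Bach1 (0.56) and Txnrd2 (-0.57) were among those, though they had not passed within a lobe. Wild-type ventral Me3 averaged 4.13, below the 4.73 under which the dimmest 25% of ventral probe sets lay. Stromal marker lists had more positive differences in the ventral lobe too. Their medians in ventral and lateral prostate were 0.43 and -0.42 for smooth muscle and 0.45 and -0.36 for fibroblast markers. Of the genes above, however, Mgst1, Gstt1, Gstcd and Gsta4 were positive in both lobes, and Gpx8 and Ephx1 negative in both. The part of stroma in these values was not tested.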

How the results depend on the processing

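With at least a 1.5-fold change also required, 2 members and 634 genes passed in ventral and 423 genes in lateral prostate. The 6 ventral arrays alone gave 965 genes. Without WT-VP replicate 3 and MT-LP replicate 3 together, 860 genes passed in the ventral lobe, 2 members and 583 genes in the lateral lobe, and 1 member (Gstt1, not Mgst1 or Gclc) in the difference between lobes. Leaving out 1 array at a time gave 941 (without WT-VP replicate 3) to 1760 genes in the ventral lobe. It gave 2 to 4 members and 499 (without WT-LP replicate 3) to 1168 genes in the lateral lobe, and 3 to 5 members in the difference between lobes. Under the same omissions the ventral difference ran from -0.427 to 0.155 for Mgst3 and from -0.0899 to 0.278 for Gsto1, and the lateral one of Mgst3 from -0.0406 to 0.118. The difference between lobes ran from -0.0163 to 0.179 for Mgst2, from -0.462 to 0.12 for Mgst3 and from -0.0597 to 0.0492 for Gpx3. Lateral minus ventral ran from -0.0267 to 0.213 for Mgst1 in wild type and from -0.0689 to 0.263 for Gsto1 in knockout. In wild type this lobe difference turned positive for Gpx3, at 0.0393 with quantile normalization and 0.122 with median centring. In knockout, quantile normalization gave 0.176 for Mgst3, 0.373 for Gclm and 0.0453 for Gpx3, median centring gave 0.127 for Gclm and 0.139 for Gpx3, and the mean of probe sets gave -0.117 for Gsto1. The cause was not tested. After group means were subtracted, same-numbered arrays correlated at -0.061 to 0.116 and arrays of different number at -0.083 to 0.055. Such values cannot show whether the numbers pair the samples. With the replicate number as a block, 3 members and 1465 genes passed in ventral and 3 and 823 in lateral prostate, with 4 members in the difference between lobes. Over all alternatives, 207 of 220 ventral and 198 of 220 lateral values of the members kept their direction and side of the threshold. Members that did not pass and stayed so are counted among these. The lateral call of Gstt1 held in 7 of 22 alternatives, the ventral call of Gclc in 13 of 22 and the lateral call of Gsto1 in 17 of 22. The block also ended the ventral call of Gclc (limma adjusted p = 0.0835) and the lateral call of Gstt1 (limma adjusted p = 0.106). Lobe and normalization run cannot be told apart, and 3 arrays a group limit what could be called.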
